A study of Mus musculus with 10 samples.

Results

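The regions described here are stretches of chromatin inside gene bodies where Gtf3c1 was listed in depolarized mouse cortical neurons and not in untreated ones. Of 57653 Gtf3c1 regions of the KCl list on chromosomes 1 to 19, 28181 (48.9%) overlapped no region of the untreated list. Of these, 20310 (72.1%) had their summit inside a RefSeq protein-coding gene and more than 1 kb from any gene start or end, and they are called KCl-only gene-body regions. They covered 6.91 Mb and lay in 5345 genes. That is 25.9% of the 20665 protein-coding genes on these chromosomes. A single gene held the summit for 20116 of them, and 194 lay where genes overlap.

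Chromatin immunoprecipitation with sequencing (ChIP-seq) was done on cortical neurons in primary culture from C57BL/6J mice, kept until day 6 and given 3% serum overnight. The untreated group received nothing further, and the KCl group received KCl at 50 mM for 45 min. Antibodies to Gtf3c1, Rpc155, H3K4me1 and H3K27ac gave 1 region list each per condition, and input chromatin was not used here. There were 3 biological replicates per condition by the design text, which does not say whether they were pooled. Every difference below is therefore between lists, has no replicate check and carries no p-value. Fewer cells binding Gtf3c1 cannot be told apart from less binding per cell. H3K27ac of the KCl list lay within 1 kb of a gene end for 10 of 10 glutamatergic and 9 of 11 GABAergic neuron markers. The same held for 5 of 9 astrocyte, 2 of 8 oligodendrocyte-lineage, 1 of 8 microglial and 1 of 8 endothelial markers. Over all protein-coding genes it held for 12018 of 20665.

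Gtf3c1 is the largest subunit of TFIIIC, the factor that recognises the internal promoter of tRNA genes and recruits RNA polymerase III, whose largest subunit is Rpc155. TFIIIC also binds many genomic sites that carry no RNA polymerase III. KCl depolarizes neurons, opens voltage-gated calcium channels and induces activity-regulated genes, the immediate-early genes first. H3K4me1 marks enhancers, and H3K27ac marks active enhancers and promoters.

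Some of the regions lay on transcription start sites that RefSeq places inside a larger gene. There were 3377 such inner starts, more than 1 kb from any gene end, each taken as the window from 250 bases before to 50 bases after the start. KCl-only gene-body regions overlapped 165 of them (4.89%), through 151 regions in 145 genes. Gtf3c1 regions listed only in untreated neurons overlapped 134 (3.97%), and KCl regions shared with the untreated list overlapped 805 (23.8%). H3K27ac was in both lists at 118 of the 165 windows, in neither at 24 and in the KCl list alone at 23. The 23 are 13.9% of the 165, against 8.05% of all inner starts. They are counted by window, and neighbouring starts such as those of Egr2 share the same region. This share is not given for starts under shared or untreated-only regions, so it is not shown to be particular to KCl-only ones.

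The following sequences are the 250 bases before 6 such starts, 5′ to 3′ on the gene's strand, from RefSeq on GRCm38. The first set is shown because it carries a complete cyclic AMP response element (CRE, TGACGTCA), the letters known to be bound by CREB, a factor activated by neuronal calcium. The window of a predicted gene model that also holds one was passed over. The other set is shown because H3K27ac was in the KCl list alone there and the window carries a CArG box, the element known to be bound by serum response factor. Both sets were chosen after their values were seen. Capitals mark the CRE, its core TGACG, the CArG box and, in Aptx and Filip1l, the letters of the B-box of RNA polymerase III promoters (GTTCNANNC), each in either orientation.
Aptx, chr4:40703195-40703444, minus strand, H3K27ac in both lists: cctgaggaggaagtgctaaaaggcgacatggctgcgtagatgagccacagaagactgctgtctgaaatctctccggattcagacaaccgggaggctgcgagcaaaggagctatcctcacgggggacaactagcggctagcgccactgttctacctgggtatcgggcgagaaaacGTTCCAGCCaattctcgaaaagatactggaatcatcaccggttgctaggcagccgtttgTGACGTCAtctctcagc
Baz2b, chr2:60125741-60125990, minus strand, H3K27ac in both lists: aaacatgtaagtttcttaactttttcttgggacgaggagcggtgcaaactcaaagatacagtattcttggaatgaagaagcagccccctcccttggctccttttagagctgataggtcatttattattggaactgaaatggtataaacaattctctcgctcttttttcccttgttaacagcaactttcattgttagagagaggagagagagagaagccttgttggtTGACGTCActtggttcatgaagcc
Mycbpap, chr11:94521503-94521752, minus strand, H3K27ac in neither list: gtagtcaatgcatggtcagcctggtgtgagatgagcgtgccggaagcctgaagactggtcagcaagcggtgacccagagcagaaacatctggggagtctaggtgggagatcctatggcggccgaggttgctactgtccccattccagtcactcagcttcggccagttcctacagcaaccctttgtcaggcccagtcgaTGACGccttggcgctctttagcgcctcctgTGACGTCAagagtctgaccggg
Abcg2, chr6:58640296-58640545, plus strand, H3K27ac in both lists: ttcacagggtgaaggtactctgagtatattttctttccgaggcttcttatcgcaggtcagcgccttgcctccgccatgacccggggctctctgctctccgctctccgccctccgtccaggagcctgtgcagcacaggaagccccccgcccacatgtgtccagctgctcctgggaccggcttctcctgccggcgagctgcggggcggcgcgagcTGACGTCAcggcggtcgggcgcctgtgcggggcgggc
Egr2, chr10:67537619-67537868, plus strand, H3K27ac in the KCl list alone: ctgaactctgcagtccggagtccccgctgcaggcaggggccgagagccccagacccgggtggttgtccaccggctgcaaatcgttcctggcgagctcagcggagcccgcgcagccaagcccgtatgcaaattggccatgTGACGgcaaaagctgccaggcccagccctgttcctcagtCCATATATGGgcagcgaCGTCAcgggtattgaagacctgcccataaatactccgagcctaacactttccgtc
Filip1l, chr16:57548992-57549241, plus strand, H3K27ac in the KCl list alone: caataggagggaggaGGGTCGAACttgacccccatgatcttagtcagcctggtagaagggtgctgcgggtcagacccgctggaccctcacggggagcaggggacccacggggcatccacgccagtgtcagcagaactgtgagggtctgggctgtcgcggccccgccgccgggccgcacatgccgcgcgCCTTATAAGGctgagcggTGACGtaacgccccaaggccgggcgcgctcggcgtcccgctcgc

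Egr2 encodes an immediate-early zinc-finger transcription factor. The KCl-only region on its inner start, chr10:67537666-67539317, had a fold enrichment of 5.92 and a −log10 q of 13.7. Its upstream sequence holds a CArG box between cores of the CRE, 1 on each strand. Abcg2 encodes an efflux transporter and Baz2b a bromodomain protein of chromatin. Their regions had fold enrichments of 2.87 and 3.77, and that of Mycbpap 3.23. The region at Aptx, a DNA repair gene, had 5.02. The region at Filip1l had a fold enrichment of 4.48. Fold enrichment is the authors' ratio of the signal at the summit to the local background, and −log10 q is the authors' measure of confidence in the region.

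Both strands of the 165 windows and of all 3377 were searched for 5 motifs. The complete CRE was in 5 of the 165 windows (3.03%) against 1.45% of all windows, and its core TGACG, which every complete CRE also contains, in 45 (27.3%) against 19.1%. The CArG box was in 9 windows (5.45%) against 1.78%, but Egr2 and Elavl4 each gave several neighbouring starts in 1 region. The AP-1 motif TGANTCA was in 9 windows (5.45%) against 7.73% of all, and the B-box in 14 (8.48%) against 8.88%. Counted by region, the CArG box was in 6 of 151 (3.97%, exact 95% interval 1.47% to 8.45%), the CRE in 5 (3.31%, 1.08% to 7.56%) and its core in 41 (27.2%, 20.2% to 35.0%). The intervals of the CArG box and of the CRE include the shares over all windows, which were counted by window and not by region. All windows means starts with or without Gtf3c1 or H3K27ac. Motif shares are not given for starts under shared or untreated-only regions, so no motif, the core included, is shown to be particular to KCl-only regions. No motif match says that a factor was bound.

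The rule used the Gtf3c1 lists themselves, so the strength of the regions in them is given as a description. Most KCl-only gene-body regions were weak and narrow. Their fold enrichment had a median of 3.23 (5th to 95th percentile 2.52 to 4.31, highest 14.0), their −log10 q a median of 3.31, and their width a median of 284 bp. The 13805 KCl regions in gene bodies that were shared with the untreated list had medians of 3.77, 5.19 and 431 bp. The mirror group was formed by the same rule from the untreated list, in which 35979 of 66174 regions (54.4%) overlapped no KCl region, and 20978 of those (58.3%) lay inside gene bodies. It is called untreated-only, and its medians were 3.22, 3.33 and 289 bp.

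The strong tail was thinner among the KCl-only regions than in the other groups. A −log10 q of at least 10 was reached by 219 of them (1.08%), by 1407 untreated-only regions (6.71%) and by 2896 shared ones (21.0%). At the edges of the rule, 254 regions had their summit up to 100 bp beyond the limit of 1 kb from a gene end and 225 excluded ones up to 100 bp short of it, with a median fold enrichment of 3.23 in both. An untreated region lay within 100 bp of 651 members, while 968 KCl regions in gene bodies were left out for an overlap of 1 to 100 bp, again with a median of 3.23 in both. The nearest untreated region was a median of 2236.5 bp away, and 6350 members (31.3%) had one within 1 kb.

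The KCl-only regions were gathered in fewer genes than the untreated-only ones. The 100 genes with most held 5702 of 20634 pairs of a region and a gene (27.6%), against 3466 of 21331 (16.2%) for the 100 genes with most untreated-only regions. Untreated-only regions lay in 6192 genes (30.0%). The next region of the same group was a median of 4631.5 bp away for KCl-only and 8125.5 bp for untreated-only regions, and 51.7% against 38.2% had one within 5 kb. The genes holding them had a median length of 46.6 kb for KCl-only and 55.2 kb for untreated-only regions, against 17.5 kb over all protein-coding genes.

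Among the 10 genes with most KCl-only regions were long genes of neuronal adhesion, guidance and scaffolding. Tenm2, a teneurin that joins cells across the synapse, held 197 KCl-only and 53 untreated-only regions. Celf2, an RNA-binding regulator of splicing, held 163 and 59, and Plxna4, a semaphorin receptor of growing axons, 143 and 39. Ptprd, a receptor tyrosine phosphatase that organises synapses, held 140 and 49. The ankyrins that anchor membrane proteins to the cytoskeleton followed with 132 and 43 in Ank2 and 111 and 54 in Ank3. Dab1, the adaptor of Reelin signalling, held 124 and 64, Kalrn, a nucleotide exchange factor of dendritic spines, 116 and 50, and Dlg2, a postsynaptic scaffold, 107 and 70. In each of these genes, which were chosen by their KCl-only count, that count was the larger one, and in the plot of regions per gene those labelled sit together at the upper right.

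**Figure D1:**
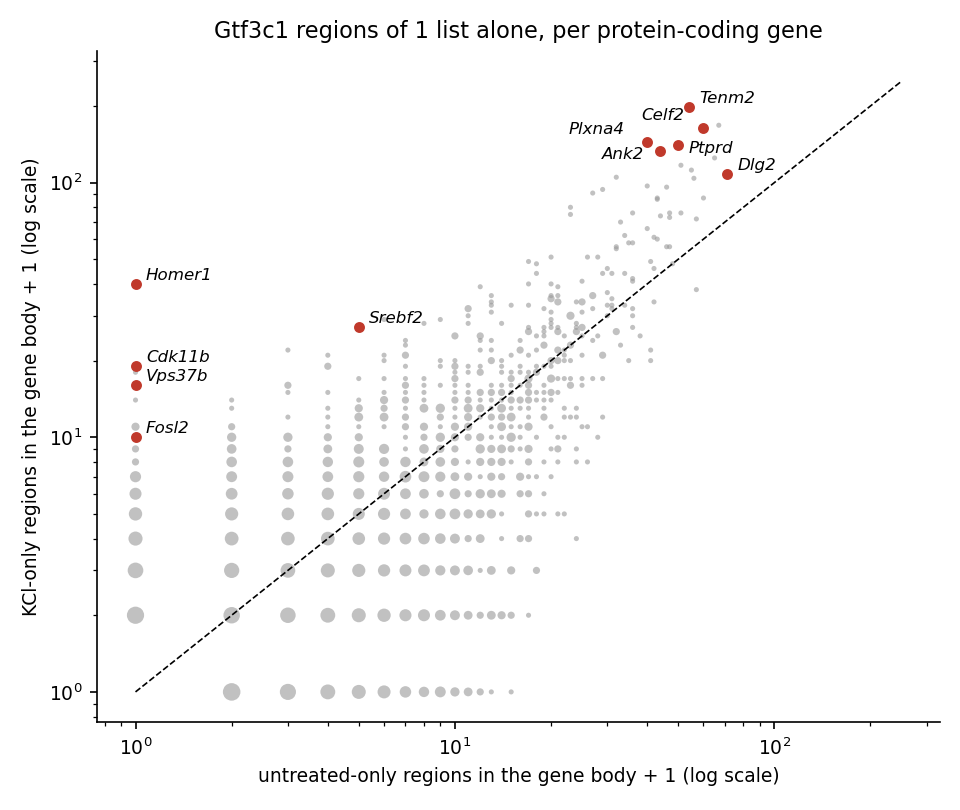
Each grey point stands for the protein-coding genes with the same number of untreated-only (x axis) and KCl-only (y axis) Gtf3c1 regions in their body, larger where more genes coincide; both axes are log scales of the count plus 1, the dashed line marks equal counts and red points are named genes. Tenm2 lies highest with 197 KCl-only regions, and Homer1, Cdk11b, Vps37b and Fosl2 stand on the left edge with 0 untreated-only regions.

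Per length of gene the order was a different one. Among genes with at least 3, Cdk11b, a cyclin-dependent kinase tied to transcription and splicing, had 71.7 KCl-only regions per 100 kb. U2af1, which recognises the 3′ splice site, had 66.3, the tyrosine kinase Matk 59.7, the IκB-family protein Nfkbid 57.0 and the ESCRT subunit Vps37b 54.3. C1qtnf4 had 51.7, Ifrd1 49.8, Ahsa2 49.2, Fbl, the nucleolar RNA methyltransferase fibrillarin, 48.2 and the mitochondrial protein Chchd2 47.5. Over all protein-coding genes there were 2.06 KCl-only and 2.13 untreated-only regions per 100 kb. These 10, chosen by their KCl-only density, are short genes, from 6.31 kb (Chchd2) to 27.6 kb (Vps37b). Of them 7 held no untreated-only region, and over all protein-coding genes only 30.0% held one.

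Several genes were covered by Gtf3c1 over much of their body in the KCl list alone. Homer1 (chr13:93303757-93405129), a postsynaptic scaffold gene whose short form is an immediate-early product, held 39 and no untreated-only region. Gtf3c1 regions of any kind covered 2.92% of Homer1 without and 43.6% of it with KCl. In Fosl2 (chr5:32136472-32157840), a Fos-family transcription factor gene, the cover was 3.14% and 75.9%, with 9 KCl-only regions. In Cdk11b it was 0.630% and 46.6% with 18 KCl-only regions, in Vps37b 3.66% and 62.4% with 15, and in Fbl 11.5% and 64.6% with 5. The cover was thus low without KCl and high with it in each of these 5 genes, which were picked by their counts in the same lists.

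The maps of the regions along 4 genes show how they were laid out. In Homer1 the summits lay 11.0 to 97.7 kb from the 5′ end. Each 10 kb step from 10 to 70 kb held 5 to 8 of them, those from 70 to 90 kb held 0 and the step from 90 to 100 kb held 2. Their fold enrichments ran from 2.31 to 5.92. Along the same gene H3K27ac was listed at 8 regions with KCl and 4 without, and H3K4me1 at 28 and 19. In Cdk11b the 18 summits ran from 2.28 to 24.0 kb of a 25.1 kb gene, while H3K27ac had 1 region in each list, at the 5′ end. In Ank2, 132 KCl-only summits ran from 48.6 to 577 kb of 579 kb, and 89 of them lay on the 3′ side of its midpoint. Of the 43 untreated-only summits of Ank2, 22 lay there. In Tenm2, 144 of 197 KCl-only and 40 of 53 untreated-only summits lay on the 3′ side.

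**Figure D2:**
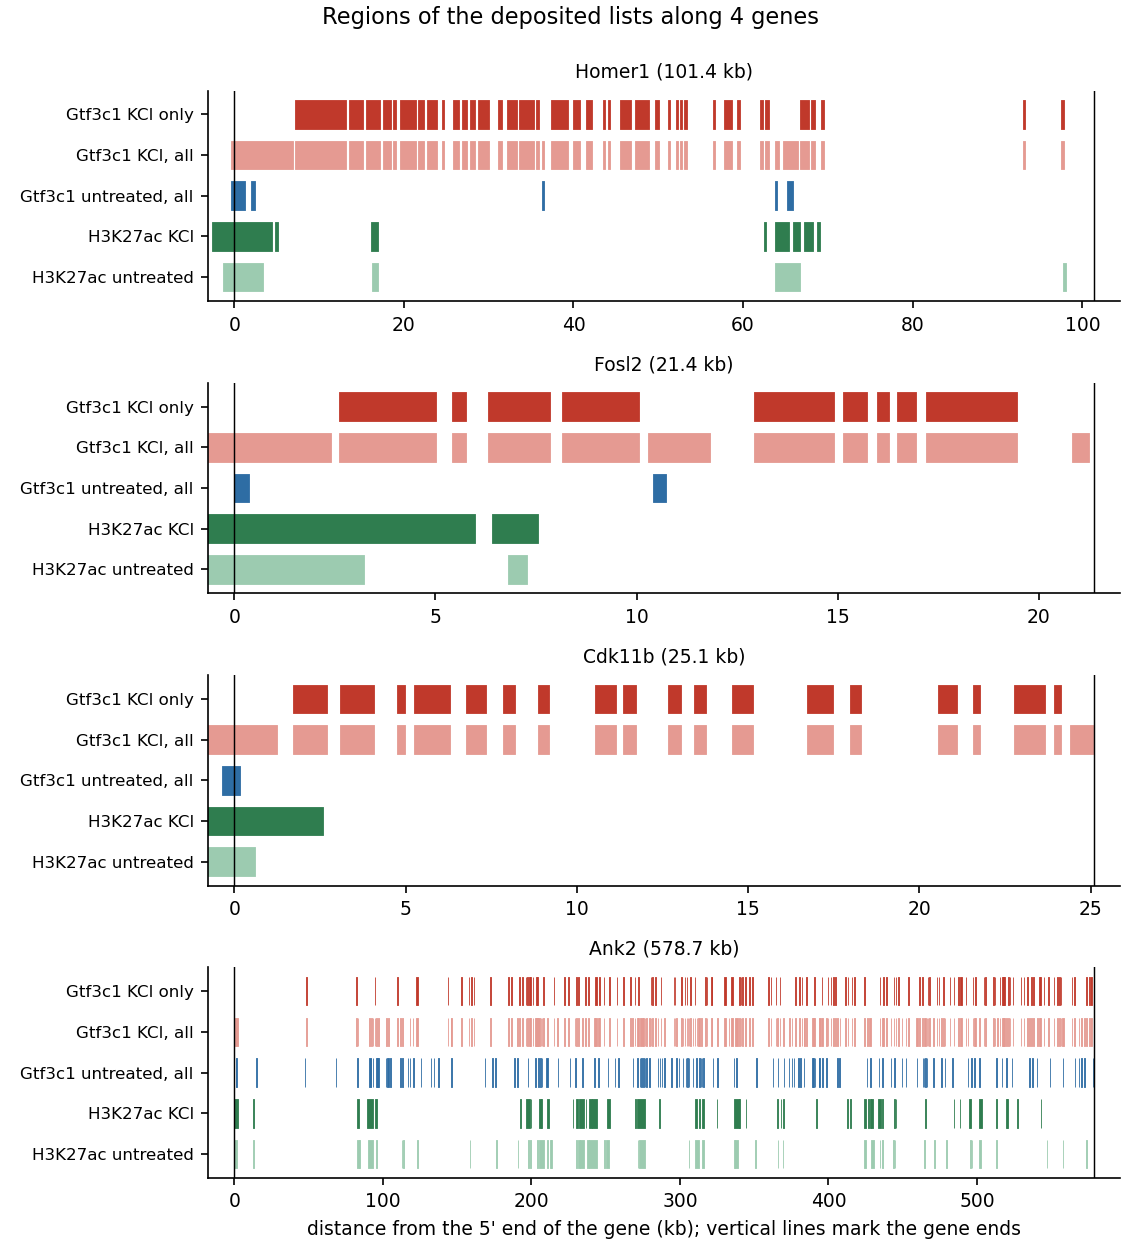
Regions of the deposited lists drawn to scale along Homer1, Fosl2, Cdk11b and Ank2, with the distance from the gene's 5′ end in kb on the x axis and 1 row per list: the KCl-only Gtf3c1 gene-body regions, all Gtf3c1 regions with and without KCl, and H3K27ac of both. KCl-only regions lie in Homer1 (39 regions) mostly between 10 and 70 kb and run through Fosl2 (9) and Cdk11b (18). In these 3 genes the untreated Gtf3c1 list has 5, 2 and 1 regions.

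Gene lists were compared by counts. Of 32 immediate-early genes, 11 held KCl-only gene-body regions and 2 held untreated-only ones, beside the 25.9% and 30.0% of all protein-coding genes given above. The 11 became 6 with members at a q of 1e-05 or lower, and 6 with a margin of 5 kb from gene ends. The 11 held 69 KCl-only regions against 3 untreated-only ones in the list, or 15.4 against 0.668 per 100 kb. Without Homer1 the values were 30 and 3 regions, 8.62 and 0.862 per 100 kb. The median over the 32 genes was 0, as over all genes, and with a median length of 6.38 kb many of them leave little room more than 1 kb from an end. The list was known to hold KCl-only regions when it was chosen, so these counts are a description.

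After Homer1 and Fosl2, the immediate-early genes with most were Maff, a small Maf transcription factor, with 5, the nuclear receptor Nr4a3 with 3 and the circadian repressor Per1 with 3. Egr2, the stem-cell factor Klf4, the neuronal activity factor Npas4 and the nuclear receptor Nr4a2 held 2 each. The kinase gene Sik1 and Srf, which encodes serum response factor, held 1 each. None of these 11 genes held an untreated-only region, and the untreated-only ones lay in Nr4a1 (2) and Csrnp1 (1). The share of the gene covered by Gtf3c1 was larger in the KCl list in each of the 11, which hold KCl-only and no untreated-only regions by these same lists. It was 30.0% untreated and 89.0% with KCl in Nr4a3, 28.1% and 83.0% in Sik1, 37.6% and 75.6% in Npas4, and 34.7% and 74.8% in Srf. It was 40.0% and 69.4% in Per1, 16.0% and 54.8% in Nr4a2, 0.431% and 41.9% in Klf4, 11.2% and 41.0% in Egr2, and 12.7% and 39.2% in Maff.

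Of the 69 members in these genes, 16 (23.2%) overlapped H3K27ac in the KCl list and 9 (13.0%) in the untreated list, beside 25.8% and 21.6% of all KCl-only gene-body regions. Both members in Klf4 overlapped H3K27ac in the KCl list and neither did in the untreated list. One member each in Egr2, Nr4a3, Per1 and Sik1 overlapped H3K27ac with KCl, and none of the members in these 4 genes did without it. The counts with and without KCl were 4 and 3 of 39 in Homer1, 3 and 2 of 9 in Fosl2, 2 and 2 in Npas4, 1 and 1 in Maff and 0 and 0 in Srf. Of the 2 members in Nr4a2, 1 overlapped untreated H3K27ac and 0 overlapped that of the KCl list. Most KCl-only regions of Homer1 and Fosl2 thus lay outside H3K27ac in both conditions.

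Among 21 delayed activity-regulated genes, 7 held KCl-only and 7 untreated-only regions (33.3% each, near the 25.9% and 30.0% of all protein-coding genes), with 20 and 10 regions in all. The KCl-only count was the larger in 4 genes and the untreated-only count in 4. Rheb, a small GTPase upstream of mTOR, held 9 and 1, and Bdnf, the neurotrophin induced by activity, 4 and 1. Inhba, a subunit of activin, held 3 and 0, and the prohormone convertase gene Pcsk1 1 and 0. The activin-family receptor gene Acvr1c and the repressor gene Bcl6 held 1 and 2 each, and the hormone gene Stc1 1 and 1. Gtf3c1 cover was higher with KCl in Rheb (4.93% untreated, 11.6% KCl), Bdnf (5.72% and 9.09%) and Pcsk1 (0% and 5.02%). It was slightly lower with KCl in Inhba (9.99% and 9.37%), Acvr1c (1.62% and 1.38%), Bcl6 (8.61% and 8.36%) and Stc1 (12.3% and 12.2%).

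Of 33 genes of CREB and calcium signalling, 29 held KCl-only and 29 untreated-only regions, 87.9% each beside 25.9% and 30.0% of all protein-coding genes, with 253 and 192 regions and a median of 3 KCl-only regions per gene against 0 over all genes. These are long genes, with a median length of 71.8 kb against 17.5 kb. Per 100 kb they held 4.42 KCl-only and 3.35 untreated-only regions, beside 2.06 and 2.13 over all protein-coding genes. The L-type calcium channel genes Cacna1c and Cacna1d held 41 and 8 KCl-only against 35 and 11 untreated-only regions. The intracellular calcium channel gene Itpr1 held 23 and 12, and its relative Ryr2 held 0 and 8. Among the calcium-dependent phosphatase subunits, Ppp3ca held 30 and 12 and Ppp3cb 2 and 1. The MEF2 transcription factors, which act downstream of calcium, held 35 and 12 (Mef2c), 10 and 1 (Mef2d) and 4 and 2 (Mef2a). Their class IIa deacetylase partners held 20 and 21 (Hdac9), 12 and 3 (Hdac5) and 5 and 5 (Hdac4).

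The calmodulin-dependent kinases leaned the other way, with 27 KCl-only and 47 untreated-only regions in 9 genes, of which 7 held more untreated-only and 1 more KCl-only ones. They held 16 and 14 (Camk2b), 2 and 5 (Camk2a), 1 and 3 each (Camk2d and Camk2g), 2 and 7 (Camk4), 2 and 10 (Camk1d), 1 and 1 (Camk1), 2 and 3 (Camkk2) and 0 and 1 (Camkk1). Creb1 itself held 2 and 1. The coactivator genes held 9 and 4 (Crebbp), 3 and 1 (Ep300), 4 and 2 (Crtc1) and 5 and 5 (Crtc3). The calcineurin target Nfatc3 held 2 and 1 and the protein kinase A subunits Prkacb and Prkaca 4 and 3 and 1 and 0. Within the list 17 genes held more KCl-only and 10 more untreated-only regions, beside 2915 and 4161 over all protein-coding genes.

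Lists of other neuronal genes differed among themselves. Synaptic adhesion and scaffold, glutamate receptor and potassium channel genes are long, with median lengths of 831, 395 and 280 kb against 17.5 kb over all. In that order, 87.5%, 81.0% and 81.0% of the genes held KCl-only regions, beside 25.9% of all protein-coding genes. Per 100 kb they held 3.35, 2.10 and 1.18 KCl-only and 2.24, 2.16 and 2.06 untreated-only regions, beside 2.06 and 2.13 over all. Of 24 synaptic adhesion and scaffold genes 21 held KCl-only regions, 715 in all against 478 untreated-only ones, and beside Ptprd and Dlg2 the scaffold gene Dlgap1 held 73 and 43. Of 21 glutamate receptor genes 17 held them, 189 against 195, and the NMDA receptor gene Grin2b alone gave 103 and 55. Without Grin2b it was 86 against 140, and in 17 of the 21 genes the untreated-only count was the larger. The next were the AMPA receptor genes Gria2 (15 and 12) and Gria1 (11 and 18) and the NMDA receptor gene Grin2a (10 and 13). Of 21 potassium channel genes 17 held KCl-only regions, 80 against 140, led by Kcnma1 (24 and 18) and Kcnq5 (19 and 20). In 18 of these 21 channel genes the untreated-only count was the larger.

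The remaining lists were small in counts. Of 28 genes of the RNA polymerase III machinery 8 held KCl-only regions (28.6%), near the 25.9% of all protein-coding genes. The list held 13 against 16 untreated-only ones, with 3 and 2 in the polymerase subunit gene Crcp and 1 and 2 in Gtf3c1 itself. Of 13 housekeeping genes 1 held KCl-only regions (7.69%), 2 regions in Ywhaz. Of 10 glutamatergic neuron markers 4 did (40%), 57 against 38, with 7 and 3 in the cortical transcription factor gene Cux2. GABAergic markers had 2 against 0 (Gad1 and Gad2), astrocyte markers 1 against 7, and endothelial markers 2 against 3. Oligodendrocyte-lineage and microglial markers had 0 KCl-only regions against 5 and 1 untreated-only ones. The part of other cell types in the counts was not tested.

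**Figure D3:**
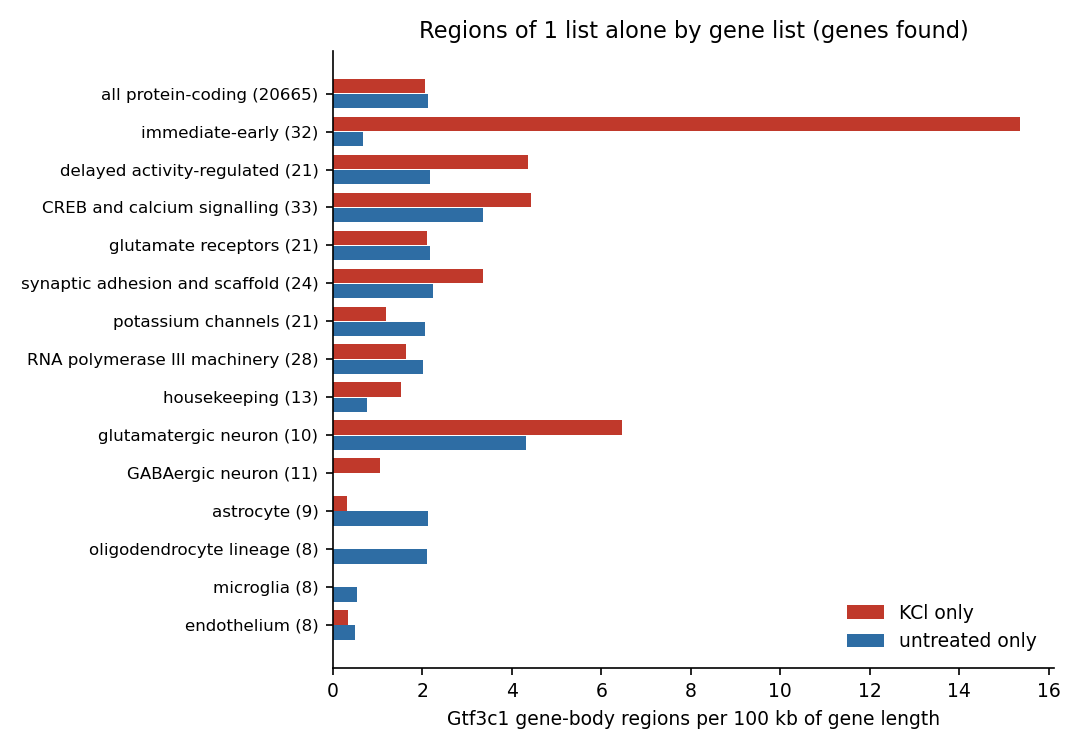
Bars give the number of KCl-only (red) and untreated-only (blue) Gtf3c1 gene-body regions per 100 kb of gene length for each gene list, with the number of genes found in brackets; they are single values with no error bar. The immediate-early list has the widest gap, 15.4 against 0.668, beside 2.06 and 2.13 over all protein-coding genes.

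The other antibodies' lists did not enter the rule and could be set beside it. Of the KCl-only gene-body regions, 10830 (53.3%, exact 95% interval 52.6% to 54.0%) overlapped H3K4me1 of the KCl list, and 5233 (25.8%, 25.2% to 26.4%) overlapped its H3K27ac. These intervals, like all below, cover counting error only. Over all KCl Gtf3c1 regions, promoters included, the shares were 70.6% and 51.5%. In gene bodies alone, the shared regions reached 84.8% and 63.2%, and the untreated-only regions 69.3% and 28.9%. The KCl-only regions were therefore the group with the least H3K4me1 and H3K27ac in the KCl lists.

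The same held in the untreated lists. There the KCl-only regions overlapped H3K4me1 in 50.6% and H3K27ac in 21.6%, against 67.3% and 47.2% of all KCl Gtf3c1 regions. The shares were 83.1% and 58.7% for shared and 69.4% and 29.9% for untreated-only regions in gene bodies. A total of 8247 KCl-only regions (40.6%) overlapped neither mark in either condition, against 9.40% of shared and 25.0% of untreated-only regions.

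Where a mark was in 1 list alone, it was more often the KCl list. H3K27ac was in the KCl list alone at 1863 KCl-only regions (9.17%) and in the untreated list alone at 1018 (5.01%). Those shares were near those over all KCl Gtf3c1 regions, 9.04% and 4.73%. H3K4me1 was in the KCl list alone at 6.34% and in the untreated list alone at 3.61%, over all KCl Gtf3c1 regions 6.11% and 2.85%. The untreated-only regions had 7.58% and 8.58% for H3K27ac, and 4.04% and 4.20% for H3K4me1, with no such lean.

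**Figure D4:**
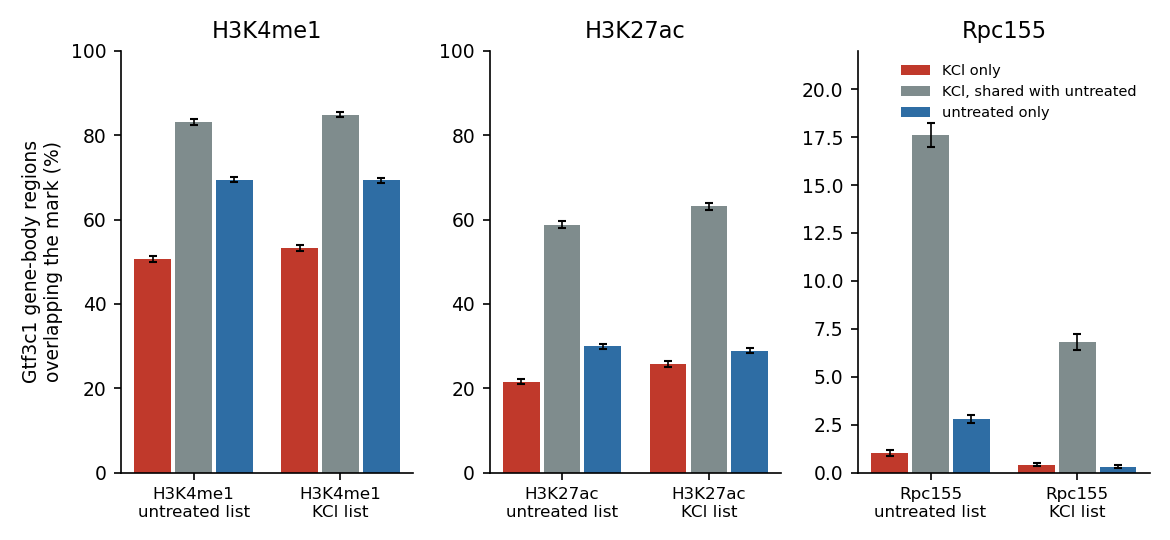
Bars give the share of gene-body Gtf3c1 regions that overlap H3K4me1, H3K27ac or Rpc155 in the untreated and the KCl list (y axes in %, that of Rpc155 on its own scale), for KCl-only, shared and untreated-only regions, with exact 95% intervals of the counts. KCl-only regions have the lowest bar for H3K4me1 and H3K27ac in both lists, 53.3% and 25.8% with KCl.

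The shares rose with the strength of the Gtf3c1 region. Among KCl-only regions with a −log10 q under 3, 48.0% overlapped H3K4me1 and 20.0% H3K27ac of the same condition, and among the 219 with at least 10 it was 77.6% and 59.4%. Untreated-only regions went from 58.4% to 91.4% for H3K4me1 and from 23.2% to 40.2% for H3K27ac of their own condition over the same classes. In the strongest class the KCl-only regions thus had less H3K4me1 (95% interval 71.5% to 83.0%, against 89.8% to 92.8%) and more H3K27ac (52.5% to 65.9%, against 37.7% to 42.8%) than the untreated-only ones. In the class from 3 to 5 both shares were lower in the KCl-only group, 54.3% against 68.7% and 26.7% against 29.8%. The strengths come from 2 different lists and were not scaled to each other. The marks too come from different lists, those of KCl for the KCl-only and those of untreated neurons for the untreated-only regions. Group and condition are therefore not separated in these contrasts, and the intervals treat regions of the same list as independent.

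Histone marks in genes with many more KCl-only than untreated-only regions were counted over the whole gene body, each mark's own lists compared. With at least 10 regions of both kinds together, 68 genes had at least 3 times as many KCl-only as untreated-only Gtf3c1 regions. In these genes 681 H3K4me1 regions were in the KCl list alone and 283 in the untreated list alone, 70.6% KCl (67.7% to 73.5%), beside 53.0% over all protein-coding genes. For H3K27ac it was 362 and 267, 57.6% (53.6% to 61.5%), beside 44.8%. H3K4me1 had more KCl-only regions in 47 of the 68 genes, fewer in 8 and as many in 13, and H3K27ac 37, 14 and 17.

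The 102 genes with the opposite ratio had 48.7% for H3K4me1 and 31.3% for H3K27ac, and the 706 genes between had 54.5% and 40.0%. Of these 3 classes, the KCl share of either mark was highest in the genes with the Gtf3c1 excess and lowest in those with the opposite ratio. By the number of members alone the order was less plain. H3K4me1 went from 51.4% in genes with none to 60.2% in the 91 genes with 30 or more, while H3K27ac went from 48.1% to 41.5%. All lists of a condition share the cultures' treatment and the input control named in the design text, and regions of 1 gene are not independent.

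The 10 strongest KCl-only regions were mostly on sites that carried histone marks in both conditions. The strongest lay in Igfbp2, an insulin-like growth factor binding protein gene, at chr1:72825566-72826174, with a fold enrichment of 14.0 and a −log10 q of 61.1. H3K27ac had a fold enrichment of 3.68 there without and 6.89 with KCl, and Rpc155 3.74 and 6.72. The next lay in Bcl6 (10.4), the neuronal transcription factor gene Tcf4 (9.69), Efcab11 (9.51), Mpp7 (9.33), the POU factor gene Pou3f2 (9.33) and the neuronal membrane glycoprotein gene Gpm6a (9.33). The last of the 10 were the laminin gene Lama2 (9.15), the potassium channel gene Kcnh6 (8.79) and Nkain2 (8.61). H3K27ac was listed at all 10 with KCl and at all but that of Mpp7 without. At Kcnh6 its fold enrichment was 2.41 without and 7.56 with KCl, and at Gpm6a 15.2 and 13.9.

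The widest regions were of another kind, several of them in genes with much Gtf3c1 cover. The widest was in Homer1, chr13:93310914-93316974, 6061 bp wide with a fold enrichment of 5.74 and H3K4me1 of 4.93 without and 6.71 with KCl, but no H3K27ac. Those in Nop53, a ribosome biogenesis gene (3386 bp), and Sc5d, a sterol synthesis enzyme gene (2876 bp), overlapped neither histone mark. That in Leng8 (2685 bp) overlapped H3K27ac in the KCl list alone, with a fold enrichment of 15.5. The others lay in Msantd1 (2916 bp), Pcsk1 (2469 bp), Fosl2 (2424 and 2281 bp), Vps37b (2284 bp) and the chaperone gene Dnajb4 (2255 bp). H3K27ac was 3.32 without and 11.3 with KCl at Pcsk1, 3.96 and 12.2 at Dnajb4, 5.97 and 9.86 at Msantd1, and 7.27 and 14.0 at the wider Fosl2 region. The Pcsk1 region, chr13:75089233-75091701, has its summit inside the gene but runs across the gene end at 75089420, so its marks are not those of the gene body alone.

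RNA polymerase III was rarely listed at these regions. Rpc155 of the KCl list overlapped 87 of them (0.428%, 0.343% to 0.528%), against 5.89% of all KCl Gtf3c1 regions and 6.82% of the shared ones in gene bodies. Among untreated-only regions the share was as low, 0.324%. Rpc155 of the untreated list overlapped 207 KCl-only regions (1.02%), against 14.8% of all, 17.6% of shared and 2.79% of untreated-only regions. The 87 carried KCl H3K27ac in 73 cases (83.9%), and 70 of them were in the KCl Rpc155 list alone, while 190 members were in the untreated Rpc155 list alone. The H3K27ac share is not given for shared regions with Rpc155, so it is not shown to be particular to the members. Of the 219 members with a −log10 q of at least 10, 17 (7.76%) overlapped KCl Rpc155, against 14 of the 9110 weakest (0.154%). At the same strength, 22.7% of the shared regions in gene bodies overlapped KCl Rpc155. Of the untreated-only regions at that strength, 13.6% overlapped untreated Rpc155, which is a different list. The share among strong members was thus the lowest of these groups, and a high share is not particular to them.

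The 10 highest by Rpc155 were in Arhgef10l, Igfbp2, Pou3f2, Epb41l3, Gpm6a, Pemt, Adk, Sertad2, Syde2 and Arpp21. In Arhgef10l, a nucleotide exchange factor gene, the member at chr4:140649016-140649480 had a Gtf3c1 fold enrichment of 3.77, and Rpc155 was 7.64 without and 18.5 with KCl. Rpc155 was 3.74 and 5.27 in Epb41l3, a membrane skeleton gene, and 4.92 and 5.09 in Gpm6a. In Pou3f2 (6.17), the phospholipid enzyme gene Pemt (5.09), the adenosine kinase gene Adk (4.72), Sertad2 (4.72), Syde2 (4.54) and the cyclic AMP-regulated phosphoprotein gene Arpp21 (4.54) it was in the KCl list alone. Syde2 and Arpp21 were the ones of the 10 without H3K27ac in either list.

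Along long genes the KCl-only regions lay toward the 3′ end. Each gene was split at its midpoint into a 5′ and a 3′ side. The strand was known for the genes of 14993 members. In genes over 200 kb, 58.95% of 5998 KCl-only summits (57.7% to 60.2%) lay on the 3′ side, against 53.4% of shared and 50.6% (49.4% to 51.8%) of untreated-only summits. The first 10% of the length of these genes held 6.95% of the KCl-only and 10.8% of the untreated-only summits, and the last 10% held 12.1% and 10.4%. In genes over 400 kb the 3′ side held 60.1% of KCl-only, 55.6% of shared and 51.6% of untreated-only summits. Among regions with a q of 1e-05 or lower in genes over 200 kb the gap was smaller, with 54.4% of KCl-only (51.3% to 57.4%), 52.8% of shared (50.7% to 54.8%) and 50.6% of untreated-only summits (48.5% to 52.7%) on the 3′ side.

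The lean was seen in most of the long genes. Of 159 genes over 200 kb with at least 10 KCl-only regions, 116 had more of them on the 3′ side, 36 on the 5′ side and 7 as many in both. For untreated-only regions it was 94, 107 and 19 of 220 genes. In the 138 such genes with at least 10 of both kinds, the 3′ share of KCl-only regions was the higher one in 103, the lower in 33 and equal in 2. The medians were 61.0% for KCl-only and 50.0% for untreated-only regions.

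Short genes showed the opposite lean in all groups. In genes under 50 kb the 3′ side held 37.4% of KCl-only, 31.0% of shared and 42.2% of untreated-only summits. The first 10% of their length held 15.9% of the KCl-only and 11.7% of the untreated-only summits. The KCl-only regions thus lay nearer the 5′ end than the untreated-only ones in short genes and nearer the 3′ end in long genes.

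**Figure D5:**
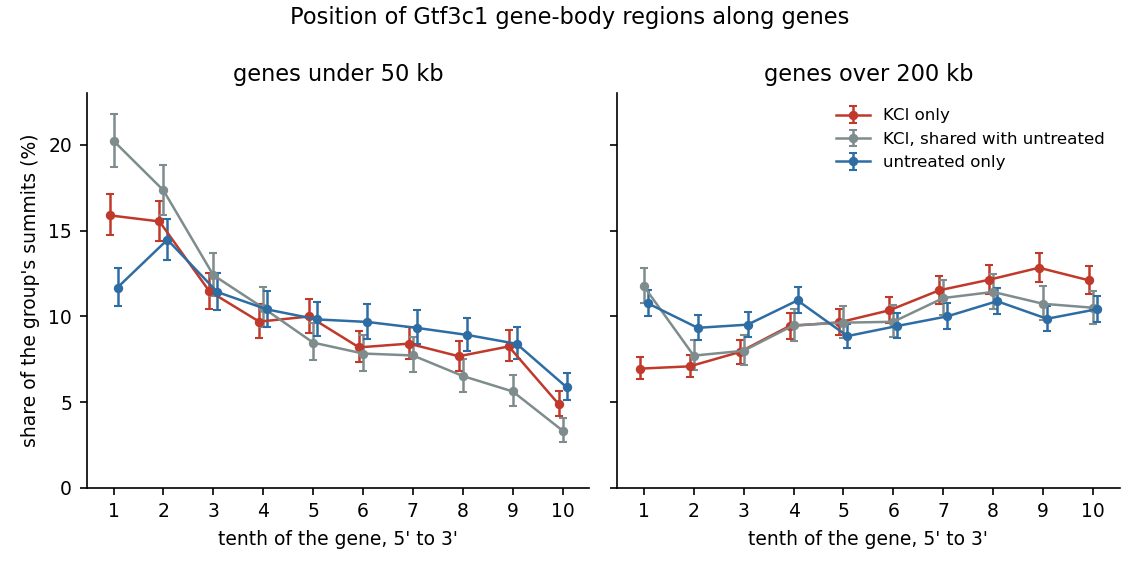
Points give the share of each group's Gtf3c1 summits (y axis, %) in each step of 10% of the gene's length from 5′ to 3′ (x axis), for genes under 50 kb and over 200 kb, with exact 95% intervals of the counts. In genes over 200 kb the KCl-only share goes from 6.95% in the first step to 12.1% in the last, while the untreated-only share starts at 10.8% and ends at 10.4%.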

How the data were processed

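ChIP-seq region lists of 4 antibodies in 2 conditions were used, 8 lists in all. The submitters' processing notes name Bowtie2, MACS2 and the build GRCm38/mm10, with versions not given in the sources used here. The deposited fold enrichment is the authors' ratio of the summit to local background. Each region's deposited −log10 p and −log10 q come from the authors too, and the deposited score is the −log10 q on another scale. The lists reach down to the q of 0.05 taken as the authors' threshold and hold no read counts, so the depth is unknown. These values served only to describe, rank and filter regions of the same list.

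Regions overlapped when they shared at least 1 bp, and positions are 1-based. Genes, strands and sequences came from RefSeq tables of GRCm38.p6. No exon annotation was used, so exonic and intronic positions are not separated. The strand was known for 16457 of 20665 protein-coding genes, from the table of start sites. Of 254 listed symbols 247 were found. Intervals are exact (Clopper-Pearson) at 95%. With 1 list per antibody and condition no test across replicates was made. Counts were made with Python 3.11.15 (pandas 2.3.3, numpy 2.4.6, scipy 1.17.1), and the overlap and placement steps were tested on simulated intervals.

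The members, gene lists and comparisons were chosen with earlier results of these data known. Named genes were those at the 10 strongest and the 10 widest members, the 10 with most members, the 10 with most per 100 kb among genes with at least 3, and the 10 members of highest KCl Rpc155 −log10 q. Every gene of the immediate-early, delayed and CREB and calcium lists with a member was named too, other lists by up to 4 examples. Predicted gene models were passed over, and some named genes are not reported here. Alternatives were a q of 1e-05, an overlap of 50%, a distance of 1 kb from untreated regions, a margin of 5 kb and placement of whole regions. Leaving out the 20 genes with most regions, and every alternative of the 3′ share, were added after the data were seen.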

Additional observations from a re-analysis of the deposited data

How the results depend on the processing

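A count was taken as moved when it changed by over 1.5 times, and a share when it left the 95% interval of the reported one. By this measure 25 recomputed values stayed and 24 moved. With members at a q of 1e-05 or lower, 3805 regions in 1920 genes were left, of which 37.7% overlapped KCl H3K27ac, 64.1% KCl H3K4me1 and 1.16% KCl Rpc155; 6 immediate-early genes held one and 54.4% lay on the 3′ side of the midpoint in genes over 200 kb. At that threshold the 3′ share of untreated-only regions was 50.6%. With all lists at a q of 1e-05, the values were 5841 regions, 2645 genes, 38.1%, 65.4%, 0.548% and a 3′ share of 54.2%. An overlap of 50% of the shorter region gave 23.9% for H3K27ac and 50.9% for H3K4me1. With no untreated region within 1 kb, H3K27ac was at 15.9%, H3K4me1 at 43.4% and Rpc155 at 0.308%. With a margin of 5 kb, 3243 genes and 6 immediate-early genes held members, with 21.1%, 49.2% and 0.276% for the 3 antibodies in that order. Placing whole regions inside the gene body gave 24.9% for H3K27ac. Without the 20 genes with most regions there were 17993 regions in 5324 genes, with 26.1% for H3K27ac, 53.4% for H3K4me1, 0.478% for Rpc155, 11 immediate-early genes and a 3′ share of 58.4%, none of them moved.

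The members are weak regions near the calling threshold, and a region absent from a list can lie just under it. The lists hold no read depth, so a difference in depth between the libraries cannot be told apart from a difference in binding. No paired analysis was possible because each antibody and condition has 1 list and no result comes from a test.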

Other observations

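The genes here were picked after their values were seen. Beside the 10 genes with most members, several long neuronal genes held at least 3 times as many KCl-only as untreated-only Gtf3c1 regions. The receptor phosphatase gene Ptprk held 104 and 31, the neural cell adhesion gene Ncam1 93 and 28 and Nell2 74 and 22. Cacna2d1, an auxiliary calcium channel subunit gene, held 38 and 11.

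Srebf2, a master transcription factor of cholesterol synthesis, held 26 KCl-only and 4 untreated-only regions in 58.1 kb. Acly, which makes cytosolic acetyl-CoA for lipid synthesis, held 13 and 0. Genes of transcription and RNA processing with 0 untreated-only regions were Aff4, a scaffold of the super elongation complex, with 17 KCl-only regions, the topoisomerase gene Top1 with 10 and the splicing-associated factor gene Sfpq with 8. Scg5, a secretory granule gene, held 10 and 0. The share of the gene covered by Gtf3c1 was 2.48% without and 10.7% with KCl in Aff4, 4.67% and 18.1% in Acly, 1.81% and 11.1% in Scg5, and 0% and 5.55% in Top1.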
